A study of Caenorhabditis elegans with 2 samples.

Results

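The msp and ssp genes of Caenorhabditis elegans were examined for occupancy by D2030.7, a protein tagged with eGFP at its own locus and recovered from chromatin with an antibody against GFP. They were taken as every protein-coding gene whose Ensembl name begins with msp- or ssp-, which gave 43 genes, 31 msp and 12 ssp, of 19973 protein-coding genes on the nuclear chromosomes. The chromatin came from whole young adults of strain RW12302, aged 62.5 h, whose CRISPR allele st12302 on chromosome I fuses D2030.7 to TY1, EGFP and 3xFLAG, in 1 group of 2 biological replicates. No group without the tag and no other condition was compared, so each value below is set beside the same value over all protein-coding genes. The material was whole animals, so strong binding in few cells and weak binding in many cannot be told apart.

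Major sperm protein (MSP), encoded by the msp genes, is the most abundant protein of nematode sperm. Its filaments drive the crawling of the sperm cell, and MSP released from sperm is the signal that starts oocyte maturation and ovulation. The ssp genes encode small sperm-specific proteins. Both families are transcribed in the germline while sperm are made, which in hermaphrodites precedes the switch to oocytes, and the GATA factor ELT-1 is known to bind msp promoters in this species.

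None of the 43 genes had a called D2030.7 peak at its 5′ end. A gene was counted when the summit of a peak lay between 1000 bp upstream and 200 bp downstream of its annotated 5′ end. In the main list, the submitters' conservative pooled list of 2777 peaks that passed their threshold, the count was 0 of 31 msp genes and 0 of 12 ssp genes. The exact 95% binomial interval for 0 of 43 reaches 8.22%, and all protein-coding genes stood at 1955 of 19973, or 9.79%. For the msp genes alone the interval reaches 11.2%, and for the ssp genes alone 26.5%. The intervals cover counting error only and treat the genes as independent, although many are near copies of each other.

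The sequences just upstream of 7 of these genes show what the windows hold and how alike the copies are. Each is the 130 bases before the annotated 5′ end, read 5′ to 3′ on the gene's strand from the RefSeq WBcel235 genome (ce11), with capitals marking the words AGATAA and TGATAA and the word ACGTG on either strand. msp-19 and msp-51 are shown because their 130 bases are identical, msp-40 and msp-31 for their weak candidates, msp-63 and msp-142 because they lie head to head, and ssp-9 for the ssp family.
msp-19, chrIV:5260459-5260588, plus strand: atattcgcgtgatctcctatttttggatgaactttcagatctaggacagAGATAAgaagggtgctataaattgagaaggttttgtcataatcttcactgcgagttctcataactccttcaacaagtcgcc
msp-51, chrIV:5295341-5295470, minus strand: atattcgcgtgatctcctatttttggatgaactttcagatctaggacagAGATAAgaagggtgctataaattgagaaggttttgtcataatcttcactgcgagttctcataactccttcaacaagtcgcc
msp-40, chrII:4825284-4825413, plus strand: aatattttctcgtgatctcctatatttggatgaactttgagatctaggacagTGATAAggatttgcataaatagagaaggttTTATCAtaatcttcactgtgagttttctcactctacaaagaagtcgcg
msp-31, chrII:4916563-4916692, minus strand: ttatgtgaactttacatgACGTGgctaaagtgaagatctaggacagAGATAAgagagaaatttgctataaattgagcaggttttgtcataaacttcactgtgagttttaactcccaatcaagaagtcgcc
msp-63, chrII:5797449-5797578, minus strand: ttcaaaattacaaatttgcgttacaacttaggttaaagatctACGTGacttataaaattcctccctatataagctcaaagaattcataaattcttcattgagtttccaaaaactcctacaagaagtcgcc
msp-142, chrII:5797797-5797926, plus strand: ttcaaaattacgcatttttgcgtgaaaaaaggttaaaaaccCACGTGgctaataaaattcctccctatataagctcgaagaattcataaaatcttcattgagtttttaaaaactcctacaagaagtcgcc
ssp-9 WBGene00006038, chrIV:4994701-4994830, minus strand: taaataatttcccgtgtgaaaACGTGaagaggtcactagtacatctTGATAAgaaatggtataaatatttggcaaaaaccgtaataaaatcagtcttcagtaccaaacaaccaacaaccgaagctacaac

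The GATA-type words recur at one place. A sense AGATAA or TGATAA began between 110 and 60 bases before the 5′ end in 29 of 43 genes (67.4%), 25 msp and 4 ssp, against 4.67% of all protein-coding genes, and that range was chosen after the sequences were read. In those 29 genes the word began 78 to 92 bases before the 5′ end. Over 250 bases upstream to 50 downstream and both strands, AGATAA or TGATAA was present in 36 of 43 genes (83.7%), against 44.6% of all genes. AGATAA alone was in 22 members (51.2%), against 21.2% of all genes, and TGATAA in 17 (39.5%), against 30.2%. The families differed: AGATAA was in 61.3% of msp and 25% of ssp genes. TGATAA was in 29% of msp genes, below the share of all genes, and in 66.7% of ssp genes. ACGTG was in 31 members (72.1%), against 27.6% of all genes. The words AGATCT and TATAAA were added after the sequences were read. AGATCT was in 23 of 31 msp genes (74.2%) and 0 of 12 ssp genes, against 5.39% of all genes. TATAAA was in 30 members (69.8%), against 37.9% of all genes. These are matches of letters in a fixed window, and AGATAA and TGATAA share the letters GATAA. Many members are near copies of each other, so their matches are not independent.

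The gene bodies were more alike than the sequences before them. The 28 msp genes of 384 bp form 378 pairs. Compared base by base without gaps, their bodies were identical at a median of 92.4% of positions (range 86.2 to 99.5%). Aligned with gaps, the 250 bases upstream had a median identity of 60.1% (50 to 98.4%) and the 130 bases upstream 70.5% (52.4 to 100%). The same alignment of msp against ssp genes gave medians of 48.5% over 250 bases and 47.5% over 130. msp-19 and msp-51, identical over the 130 bases, differed at 7 positions in their bodies. msp-63 and msp-142 matched at 86.4% of the aligned positions, gaps included, over the 130 bases. Ensembl gives the name ssp-9 to 2 genes, WBGene00006038 and WBGene00006040, whose bodies had 0 differences and whose 250 upstream bases were 86.1% identical. The annotated 5′ end is mostly the start of the coding sequence: 40 of 43 gene models began with ATG. The 234 bp models of msp-58 and msp-74 start inside msp-like sequence, since 103 of the 150 bases upstream of msp-58 matched msp-113 at 100% and the 150 bases upstream of msp-74 matched msp-45 at 93.3%.

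The count of 0 held in each of the other 3 lists that passed the submitters' threshold. The other pooled list of 3082 peaks gave 0 of 43 members, against 10.5% of all genes. Replicate 1 (2464 peaks) gave 0 of 43, against 9.08%, and replicate 2 (1811 peaks) gave 0 of 43, against 6.55%. The list sizes show that replicate 2 yielded fewer peaks. The upper bound of 8.22% for the members lies below the all-gene share in the pooled lists and replicate 1, and above it in replicate 2. For each family alone the upper bound, 11.2% for msp and 26.5% for ssp, lies above the all-gene share in every thresholded list. The lists come from the same 2 replicates, and the members were chosen with earlier results of these data known. The bounds therefore give a scale and not a test.

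**Figure D1:**
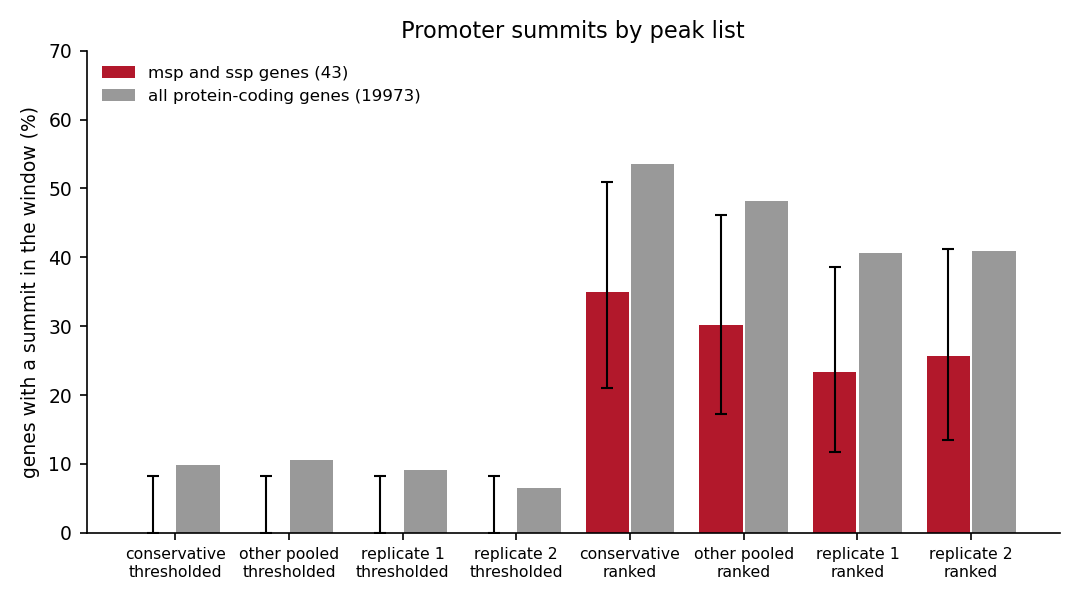
Percentage of genes with a summit between 1000 bp upstream and 200 bp downstream of the 5′ end, for the 43 msp and ssp genes (red, bars of exact 95% binomial intervals) and all 19973 protein-coding genes (grey), in the 4 thresholded and 4 ranked peak lists. The members stand at 0 in the 4 thresholded lists and below the grey bar in each ranked list.

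Weak candidates were sought in the ranked lists, which hold peaks on both sides of the submitters' reproducibility threshold, most of them below it. The ranking gives each peak an irreproducible discovery rate (IDR), and peaks of the thresholded lists have a −log10 IDR of at least 2, that is an IDR of 0.01 or less. In the conservative ranked list of 67021 peaks, 15 of 43 members (34.9%, exact 95% interval 21 to 50.9%) had a candidate in the window, against 53.5% of all genes. The share was 11 of 31 msp genes (35.5%) and 4 of 12 ssp genes (33.3%). The other pooled ranked list gave 13 members (30.2%), against 48.2% of all genes. Replicate 1 gave 10 members (23.3%), against 40.6%, and replicate 2 gave 11 (25.6%), against 40.9%. In all 4 ranked lists the members' share was below that of all genes. Their interval lay below it too, except in replicate 2, where its upper bound was 41.2%. By family, the msp interval lay below it only in the other pooled list (14.2 to 48%) and replicate 1 (7.45 to 37.5%). In the conservative list the msp interval was 19.2 to 54.6%. The ssp interval covered the all-gene share in all 4 lists. These intervals also treat near copies as independent genes, and some windows share a candidate. They too give a scale and not a test.

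Few of these candidates recurred between replicates. A candidate stood in both replicates' own ranked lists for 4 of 43 members (9.3%), ssp-16, ssp-19, msp-63 and msp-142, against 27.6% of all genes, and in at least 1 replicate's list for 17 members (39.5%), against 53.9%. Beside the 15 members of the conservative ranked list, 8 had a candidate only in the other ranked lists. They were msp-33, msp-36, msp-57, msp-59, msp-65, msp-113, ssp-10 and ssp-32. Their signals, 10.2 to 27.1, come from different lists and are not comparable between them. All 8 are among the 17. This left 20 members (46.5%) with none in any of the 4 ranked lists, against 35.5% of all genes; they include msp-3, msp-19, msp-51, msp-79 and both genes named ssp-9.

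The candidates were weak by the submitters' peak signal, a value that is comparable only within a list. For the best candidate by IDR, the 15 members had a median signal of 19.7 (2.65 to 60.6), against 34.4 (up to 1143.6) for the 10680 genes with a candidate. Their median −log10 IDR was 0.06, against 0.22, and 9 of 15 (60%) lay at the lowest value the list holds, against 28%. No member reached a −log10 IDR of 2, which 18.3% of all genes with a candidate did. That value is the threshold of the main list, so this largely restates its count of 0. For scale, the peaks of the main list had a median signal of 129.8.

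The highest-ranked candidate by IDR in the conservative ranked list belonged to ssp-16. Its summit lay 541 bp upstream of the 5′ end at chrI:6101358-6101693, with a signal of 60.6 and a −log10 IDR of 1.27, an IDR of 0.0532. In the other pooled ranked list the same peak had a −log10 IDR of only 0.39. Both replicates' own ranked lists held a peak there, with a signal of 29.2 and a −log10 IDR of 0.67 in replicate 1 and a signal of 27.8 and a −log10 IDR of 0.14 in replicate 2. It outranked 93.6% of the conservative ranked list by signal, yet only 168 of the 2777 main-list peaks (6.05%) had a lower one. The window of ssp-16 was entirely unique in the genome. The next was ssp-19, whose protein folds like MSP: its summit lay 22 bp upstream at chrI:2562478-2562813, with a signal of 48.9 and a −log10 IDR of 0.91. In the other pooled ranked list it stood at 0.73, above ssp-16, so the order of the pair by IDR is that of the conservative list alone. Its signal was 26 in replicate 1's own list and 24.7 in that of replicate 2, with −log10 IDR values of 0.17 and 0.06. Both of these ssp genes lie on chromosome I, away from the msp clusters.

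Among the msp genes, the head-to-head pair msp-63 and msp-142 was the only one with candidates in both replicates' lists. Their 5′ ends are separated by 478 bp, so their windows share candidates and they are not independent of each other. One candidate, with a summit 82 bp inside msp-63, had a signal of 34.3 (16.1 in replicate 1, 16.5 in replicate 2) and a −log10 IDR of 0.28. Another, 116 bp inside msp-142, had a signal of 28.1 and a −log10 IDR of 0.39. Replicate 1 held it at 17.5, while the nearest peak of replicate 2, at 20.8, had its summit farther into msp-142, 759 bp from the 5′ end of msp-63 and outside the window of msp-142. Both of these summits thus fall within the first bases of the genes rather than in the 130 bases shown above. A further candidate, 825 bp upstream of msp-63 and in its window only, had a signal of 11.1 and a −log10 IDR of 0.39. It was the one taken as the best candidate of msp-63 by IDR. The candidate of msp-40 lay 191 bp inside the gene, near the limit of the window, with a signal of 38.2 and a −log10 IDR of 0.28; in the replicates' own lists only replicate 2 held one, at 23.9. msp-49 had a candidate 528 bp upstream with a signal of 35.5 and a −log10 IDR of 0.21, held in replicate 2 alone at 20.3. The candidate of msp-31, 98 bp upstream and over the sequence shown, had a signal of 24.2 at the lowest −log10 IDR of 0.06 and stood in neither replicate's list. The 8 other members with a candidate (msp-32, msp-50, msp-58, msp-76, msp-77, msp-152, ssp-33 and ssp-34) were also at 0.06.

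**Figure D2:**
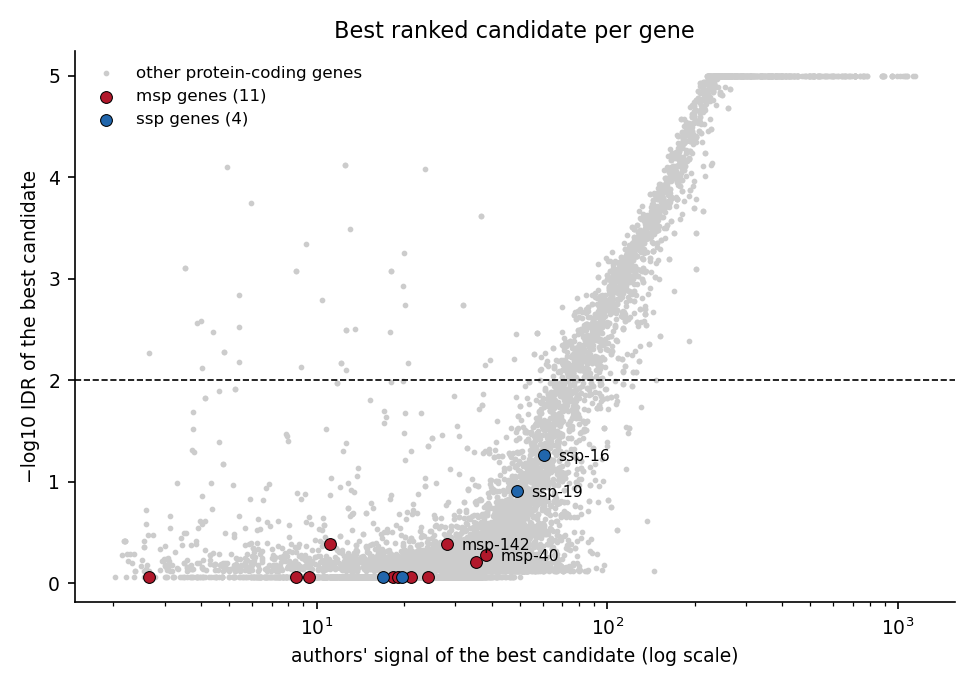
Best candidate by IDR in the conservative ranked list for each protein-coding gene that has one: the submitters' peak signal (log scale) against −log10 IDR, with 11 msp genes in red, 4 ssp genes in blue and the other genes in grey. All 15 members lie under the dashed line at 2, the value every thresholded peak reaches; ssp-16 is the nearest to it at 1.27.

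The members nonetheless lay among called peaks. The distance from the 5′ end to the nearest main-list summit had a median of 10890 bp over the 43 members (849 to 89193 bp, middle range 5402 to 17733 bp), against 15111 bp over all genes. Close to the gene the order was the other way: within 1 kb there were 2 members (4.65%), against 10.9% of all genes, and within 5 kb 10 members (23.3%), against 25.7%. Farther out the members were ahead, with 33 (76.7%) within 20 kb, against 57.9% of all genes. The median distance of the members was 11054 bp in the other pooled list, 10704 bp in replicate 1 and 15245 bp in replicate 2.

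**Figure D3:**
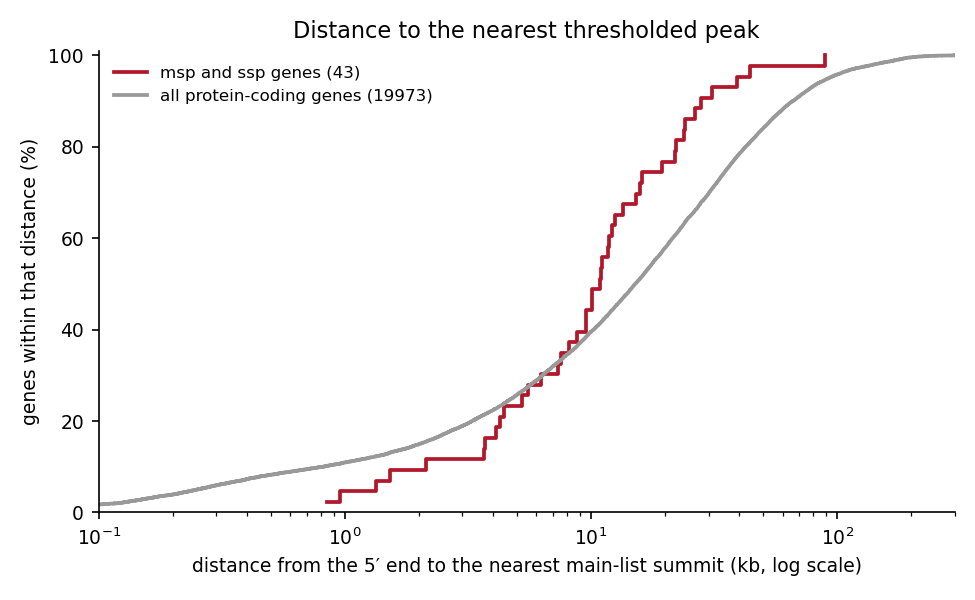
Cumulative percentage of genes against the distance from the 5′ end to the nearest summit of the main list (kb, log scale), for the 43 msp and ssp genes (red) and all 19973 protein-coding genes (grey). The red curve starts at 849 bp, runs below the grey one close to the gene and above it at 20 kb.

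The 3 nearest called peaks lay at SL2 RNA genes, and some of the others within 5 kb lay in no gene's window. The sls-2 genes encode the SL2 spliced leader, a short RNA joined to the messages of downstream genes in operons. A summit with a signal of 364.1 (210.4 in replicate 1, 149.3 in replicate 2) stood at sls-2.17, 849 bp past the 5′ end of msp-65. Another of 254.5 (155.8 in replicate 1, 91.4 in replicate 2) stood at sls-2.13, 953 bp past that of msp-57 and 1530 bp past that of msp-53. The third, of 313.9 (158.2 in replicate 1, 157.4 in replicate 2), stood at sls-2.12, 1341 bp past that of msp-19. All 3 were above the median signal of each replicate's thresholded list, 83.1 in replicate 1 and 72.8 in replicate 2, and lay beyond the ends of the msp genes. Of 18 sls-2 genes, 3 lay within 5 kb of a member, next to 5 members in all. Each of the 3 had a main-list summit within 200 bp, as had 13 of the 15 farther from members (86.7%), so a called peak was common to most sls-2 genes. The other summits within 5 kb included one of 253.1 at the small RNA gene T27A3.9, 3720 bp past ssp-16. One of 154.0 stood upstream of R05F9.11, 2134 bp past msp-31. One of 409.6, 4380 bp past msp-19, lay upstream of F36H12.5 but outside its window. Another, of 82.2, lay 4433 bp upstream of msp-152. The summits of 409.6 and 82.2 were in the window of no protein-coding gene. A summit of 113.9 in the windows of both orc-5, which encodes a subunit of the origin recognition complex, and cyb-1, a B-type cyclin, lay 3889 bp past the 5′ end of ssp-34.

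The families sit in few places, and their neighbours there carried called peaks. Members lie on chromosome II (13 msp), IV (18 msp and 6 ssp), I (4 ssp) and V (2 ssp). Joining members less than 300 kb apart gave 4 clusters of at least 3, which hold 36 of the 43. The 309 other protein-coding genes in those spans had a main-list summit in 28 cases (9.06%), against 0 of 36 members. The 13.3 kb span on chromosome II, with 3 members and 4 other genes, held 0 main-list peaks. The largest span, 454.7 kb on chromosome IV, held 12 members with 0 summits and 123 other genes with 12 (9.76%). The 414.3 kb span on chromosome II held 10 members with 0 and 112 other genes with 13 (11.6%), and other genes of that chromosome stood at 10.3%. The 322.5 kb span on chromosome IV held 11 members with 0 and 70 other genes with 3 (4.29%), below the 10.1% of chromosome IV. Called neighbours included ify-1, the securin, with a peak of 222.7, smc-5, a DNA repair subunit, with 208.4, and mtr-4, an RNA helicase of the exosome, with 234.1. By chromosome, candidates in the conservative ranked list were counted as follows. On II, 8 of 13 members had one, above the share of that chromosome's genes (57.8%), so the lower share of the members did not hold there. On I it was 2 of 4, against 66.5%, and on V 1 of 2, against 46.9%. On IV it was 4 of 24, below the 52.1% of that chromosome's genes. The other genes of the chromosome IV clusters were also low, at 32.9% in the 322.5 kb span and 41.5% in the 454.7 kb span, against 52.3% of the chromosome's other genes.

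Near-identical copies limit where reads can be placed, so the uniqueness of each window was measured as the share of its 50-base words found once in the genome. The members' median was 85.4% (29.6 to 100%), against 100% for all genes, and 5 of 43 windows (11.6%) were entirely unique, against 76.2%. The msp windows had a median of 85.2% and none was entirely unique. The ssp windows had a median of 97.7%, and 5 of 12 were entirely unique. The gene bodies were less unique, with a median of 30.1% for msp and 95.3% for ssp genes. Members with a candidate had a median of 87% and those without 84.9%. Among genes whose windows were at least 80% unique, 0 of 29 members had a main-list summit, against 9.91% of 18685 genes, and 11 of 29 (37.9%) had a candidate, against 54.4%. Among those of at least 95%, 0 of 10 members had a summit, against 9.82% of 17168 genes, and 5 of 10 had a candidate, against 54%. The sources used here give neither the read length nor the treatment of reads that map to several places, and the part of uniqueness in the candidate counts was not tested.

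**Figure D4:**
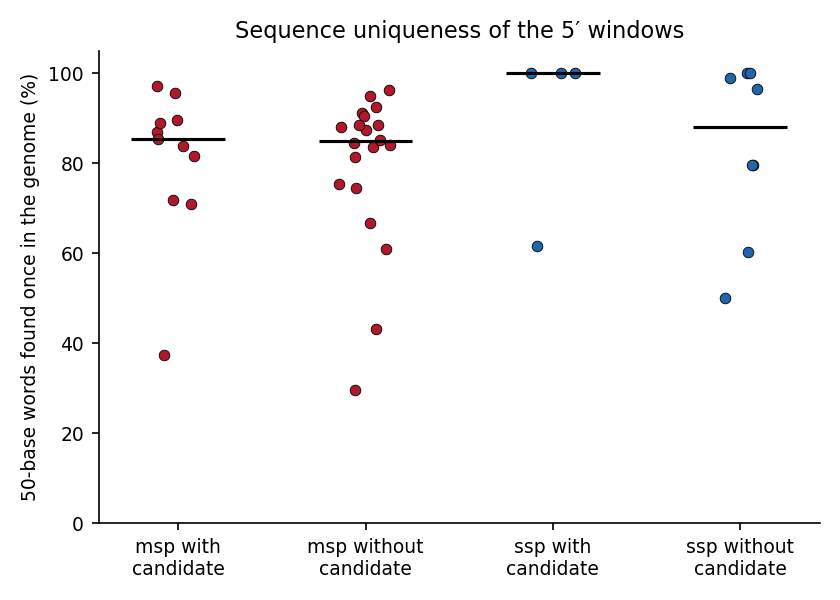
Percentage of 50-base words in each member's window that occur once in the genome, for msp genes (red) and ssp genes (blue) with and without a candidate in the conservative ranked list. Each point is 1 gene and each line a median; the points of msp genes with and without a candidate cover much the same range.

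Other genes of sperm and of the MSP response were set beside the members. Of 41 other sperm genes, 4 (9.76%, exact 95% interval 2.72 to 23.1%) had a main-list summit, against 9.79% of all genes. They were spe-48 (93), wee-1.3 (95), which encodes a kinase that restrains the cell cycle, spe-36 (116.1), whose secreted protein acts in fertilization, and spe-39 (328.9), which acts in vesicle traffic and whose summit was nearer to the 5′ end of spn-4. Only the summit of spe-39 was also in both replicates' thresholded lists, at 195.2 in replicate 1 and 129.8 in replicate 2. Of the 5 MSP domain relatives, msd-1 (a name held by 2 genes), msd-2, msd-4 and vpr-1, 0 had one (interval 0 to 52.2%). Of 10 genes of sperm fate and sperm transcription, only fem-2, a phosphatase of the male-fate pathway, had one (88.7), a share of 10% (0.253 to 44.5%). Of 14 genes of MSP reception and the oocyte response, 2 had one (14.3%, 1.78 to 42.8%). These were oma-1 (260.6) and oma-2 (269.5), which encode zinc finger proteins needed for oocyte maturation. The intervals of these lists all cover the share of all genes.

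Genes of the oocyte stood far above the members. Of 20 such genes, a list chosen with earlier results of these data known and holding oma-1 and oma-2 as well, 15 (75%, exact 95% interval 50.9 to 91.3%) had a main-list summit, and all 20 had a candidate in the ranked list. The highest were cpg-1 (995.0) and cpg-2 (550.2), which encode eggshell proteoglycans, mex-1 (538.7) and pos-1 (510.2), maternal RNA-binding proteins, chs-1 (451.3), chitin synthase, and rme-2 (402.0), the yolk receptor. Their median distance to a main-list summit was 248 bp. Because the oocyte list was chosen with earlier results known, its share gives a scale and not a test against the members. The interval of the members (0 to 8.22%) overlaps that of the other sperm genes. The tagged gene itself had 0 main-list summits in its window.

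**Figure D5:**
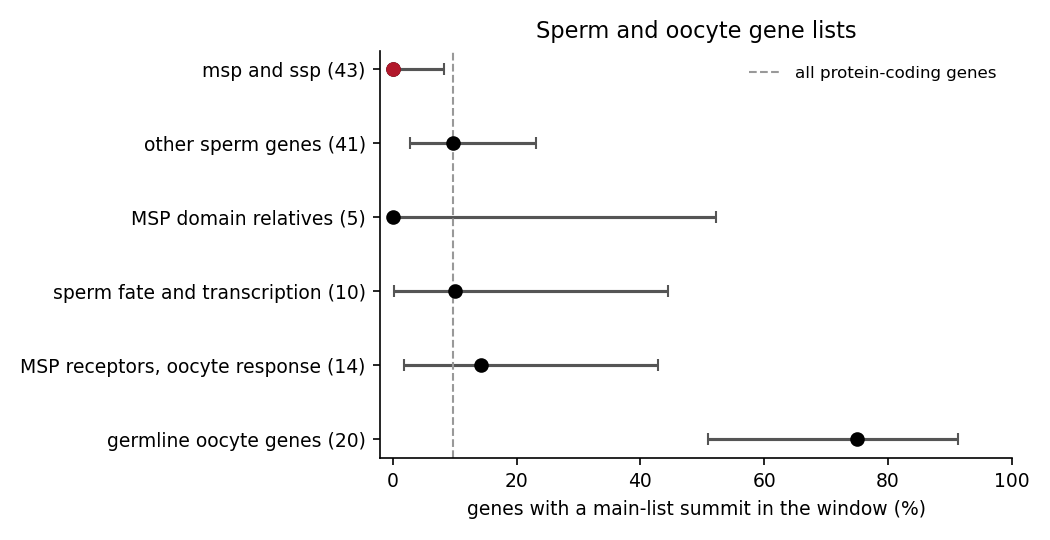
Percentage of genes with a main-list summit in the window for the 43 msp and ssp genes (red) and for 5 other gene lists (black), with exact 95% binomial intervals and the number of genes in brackets; the dashed line marks all protein-coding genes at 9.79%. The oocyte genes stand at 75% and the members at 0.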

How the data were processed

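D2030.7-eGFP ChIP-seq peak lists on build ce11 (the same assembly as WBcel235) from 2 biological replicates were used. The sources at hand name neither aligner nor peak caller, and the depth of the libraries is unknown. Per the file descriptions the authors derived the peaks from alignments with a control. The deposited signal is the authors' value per peak, and the deposited −log10 IDR comes from ranking a pair of inputs. Of 8 lists, 4 were thresholded and 4 ranked; in each pooled or replicate pair all thresholded peaks had a −log10 IDR of at least 2. The pooled ranked list used first was matched to the replicates because 50.2% of its first-input intervals equal replicate peaks, against 0.00175% for the other.

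Genes came from Ensembl release 115. Summits were counted in windows of 1000 bp upstream to 200 bp downstream with Python 3.11.15, numpy 2.4.6, pandas 2.3.3 and scipy 1.17.1; alignments used Biopython 1.88. Window counting and word uniqueness were tested on simulated data. No test over samples was possible with 1 group, so shares have exact Clopper-Pearson intervals. All members could be named; values in full went to the 10 highest by IDR, to genes with a summit within 5 kb of a member and to listed genes with a summit. The members and gene lists were chosen with earlier results of these data known. Alternatives were other windows, nearest-gene assignment within the window, peak overlap, other lists, other thresholds and word lengths. Another, chosen after seeing the data, kept only windows at least 80% unique.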

Additional observations from a re-analysis of the deposited data

How the results depend on the processing

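The count of msp and ssp genes with a thresholded summit was 0 under all 10 alternatives run, while the share of all genes ran from 5.63 to 12.4% in the 9 for which it was computed over all genes. The alternatives were windows of 500 bp upstream to 100 bp downstream and of 2000 bp upstream, nearest-gene assignment within the window, and peak overlap of 1 bp. Others were the other pooled list, each replicate alone (0 to 0), the stronger part of the list and an IDR of 0.05. One more, chosen after seeing the data, kept only windows at least 80% unique. The narrower window, nearest-gene assignment, the stronger part of the list and the 80% unique windows can only lower the main count. Their 0 was therefore fixed in advance. Without the window limit, the called peaks at sls-2.17, sls-2.13 and sls-2.12 would go to msp-65, msp-57 and msp-19, the nearest protein-coding 5′ ends. With the window of 500 bp upstream to 100 bp downstream, the members with a ranked candidate fell from 15 of 43 to 8 of 43. All genes fell from 53.5% to 38.7%, a smaller drop in proportion. The narrower window holds less sequence, and the difference between the drops was not tested. The candidate count was 13 in the other pooled ranked list and 10 to 11 with 1 replicate left out. The median distance was 10704 to 15245 bp with 1 replicate left out and 11054 bp in the other pooled list. Median uniqueness was 80.6% with words of 36 bases and 95.3% with words of 100. No paired analysis was possible because there is only 1 group. Read depth is unknown, no list from untagged animals was used, and near-identical copies limit placement, so a peak that is not listed is not shown to be absent.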
